A study of Mus musculus with 24 samples.

Results

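Myo7a, LOC100503910, Cacng6 and Frmpd1 are 4 of the 25793 gene symbols counted in the cerebellum (CB) and hippocampus (HC) of 16GsoT/T and wild-type (WT) mice. They were selected on the P14 libraries, where their counts were much lower in 16GsoT/T than in WT in both regions. The P14 contrasts therefore describe the selection and test nothing. The P35 libraries were not used for it, and the tests below are of those libraries. The question taken to them was whether the differences were still present at the later age, and whether the 4 genes sit near each other or near other genes that differ.

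16GsoT/T mice are homozygous for a reciprocal translocation between chromosomes 5 and 8, T(5G2;8A1)GSO, and the WT mice do not carry it. There were 3 libraries from each genotype at postnatal day 14 (P14) and day 35 (P35) in each region, 24 in all, and the study states that males were used. The labels give the strain as C57BL/6, whereas the methods describe mice kept on a mixed B6C3 background, a cross of C57BL/6 and C3H, and the WT library names outside P14 CB carry that name too. The translocation arose in mice descended from chemically exposed males, and 16GsoT/T mice came from homozygous parents, so mutant and WT mice can differ at loci other than the translocation. Nothing in the labels says whether the CB and HC libraries of an age came from the same animals.

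Myo7a encodes myosin VIIA, an unconventional myosin motor that moves cargo along actin. It is best known from the stereocilia of inner ear hair cells and from the retina, and its loss causes deafness and vestibular defects in the shaker-1 mouse and Usher syndrome type 1B in humans. Cacng6 encodes a gamma subunit of voltage-gated calcium channels, a family of small membrane proteins whose other members include auxiliary subunits of AMPA receptors. Frmpd1 encodes a scaffold protein with a PDZ and a FERM domain that binds regulators of heterotrimeric G proteins. LOC100503910 is an uncharacterised locus, and no function is given for it here.

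In build NCBIM37, with the GENCODE vM1 annotation, Myo7a (ENSMUSG00000030761.9) is a minus-strand gene of chromosome 7, with start 105199570 and end 105268034. Cacng6 (ENSMUSG00000078815.1) is on the plus strand of the same chromosome, with start 3425423 and end 3435658, far from Myo7a. Frmpd1 (ENSMUSG00000035615.6) is on the plus strand of chromosome 4, with start 45197747 and end 45298808. None of these 3 genes is on chromosome 5 or 8, the chromosomes of the translocation. LOC100503910 is not placed in that annotation. Within its span Frmpd1 shares bases with 2900093L17Rik, a locus for which the tables have no row, and no other annotated gene overlaps the 3 positions.

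The promoters of the 3 placed genes are shown because genes that differ together may be compared at their start sites. Each window runs from 250 bases before to 50 bases after a RefSeq start site in build GRCm38.p6, printed 5′ to 3′ along the gene's strand. Capitals mark matches to GGGCGG (the GC box) on either strand, the only one of 3 searched motifs found in these windows.
Myo7a, upstream start, chr7:98119444-98119743, minus strand: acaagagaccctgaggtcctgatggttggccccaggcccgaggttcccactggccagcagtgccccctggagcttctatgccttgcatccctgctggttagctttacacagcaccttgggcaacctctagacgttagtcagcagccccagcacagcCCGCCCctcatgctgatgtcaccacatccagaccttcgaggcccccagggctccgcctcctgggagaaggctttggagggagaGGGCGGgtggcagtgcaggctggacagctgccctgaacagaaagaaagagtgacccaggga
Myo7a, downstream start, chr7:98109199-98109498, minus strand: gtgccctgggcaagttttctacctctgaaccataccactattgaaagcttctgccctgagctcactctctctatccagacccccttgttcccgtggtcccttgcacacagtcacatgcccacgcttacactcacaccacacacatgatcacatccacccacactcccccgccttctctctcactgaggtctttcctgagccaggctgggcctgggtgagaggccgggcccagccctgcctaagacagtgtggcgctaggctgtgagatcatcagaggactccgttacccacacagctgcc
Cacng6, chr7:3424412-3424711, plus strand: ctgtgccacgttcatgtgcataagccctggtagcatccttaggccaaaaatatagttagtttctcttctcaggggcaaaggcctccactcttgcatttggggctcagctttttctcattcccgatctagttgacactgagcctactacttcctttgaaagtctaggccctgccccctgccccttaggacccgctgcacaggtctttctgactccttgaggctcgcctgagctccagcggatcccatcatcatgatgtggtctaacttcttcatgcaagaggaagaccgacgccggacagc
Frmpd1, chr4:45184656-45184955, plus strand: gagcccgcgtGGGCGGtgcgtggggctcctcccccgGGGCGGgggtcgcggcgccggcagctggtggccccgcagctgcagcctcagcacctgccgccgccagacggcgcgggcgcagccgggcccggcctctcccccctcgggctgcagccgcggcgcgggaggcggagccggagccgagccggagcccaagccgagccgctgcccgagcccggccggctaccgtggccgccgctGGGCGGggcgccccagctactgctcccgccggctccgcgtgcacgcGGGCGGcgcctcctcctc
The 3 genes have start regions of different kinds. The Frmpd1 window is 83.3% G and C and holds 46 CpG dinucleotides, against medians of 52.7% and 7 over 32851 such windows in the mouse. The Cacng6 window, at 52.7% and 8 CpG, is close to the median, and the Myo7a windows have 62.0% and 58.0% with 6 CpG each. GGGCGG occurs 4 times at Frmpd1 and 2 times at the upstream Myo7a start, and 35.7% of all windows hold it at least once. The motifs AGAACA, which is a half-site of the glucocorticoid receptor, and TATAAA, the TATA box, occur in 18.97% and 13.6% of all windows and in none of these 4 windows. The motifs do not overlap one another, and a match is a match of letters only.

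Values are CPM, counts per 1000000 reads on genes, after TMM scaling of the 6 libraries of an age and region. P14 CB libraries had 22893603 to 40564789 reads on genes and P14 HC libraries 10572358 to 13245150, whereas P35 CB had 5140843 to 7974640 and P35 HC 2563968 to 4127478. Genes of low level are thus measured most precisely in P14 CB and least precisely in P35 HC. Reads on genes made up 64.8 to 68.1% of the reads in P14 CB and 37.6 to 42.4% in the other groups. The part of this in differences of level between P14 CB and other groups was not tested. A gene was called when its adjusted p in the quasi-likelihood test of edgeR was at most 0.05. No p below measures more than the spread between 3 libraries of a group. In whole tissue, fewer cells of a type and less RNA in each cell cannot be told apart.

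Myo7a was low in every 16GsoT/T library at both ages. In P14 CB the WT libraries held 457, 422 and 278 Myo7a counts, which is 13.1, 12.2 and 12.03 CPM. The 16GsoT/T libraries held 36, 14 and 43 counts, which is 1.03, 0.423 and 1.03 CPM. The mutant mean was 6.65% of the WT mean, with no overlap between the groups. In P14 HC the WT libraries had 11.9, 12.7 and 15.1 CPM and the 16GsoT/T libraries 2.99, 2.18 and 3.24 CPM, again without overlap. By CPM, scaled separately in each region, WT levels of Myo7a were thus alike in the regions at P14. What remained in the mutant was higher in HC (2.80 ± 0.552 CPM, SD, n = 3) than in CB (0.828 ± 0.351 CPM). As selected, all 4 genes were called lower in both P14 comparisons and had groups that did not overlap. Of all tested genes, 0.413% were called lower in P14 CB and 0.453% in P14 HC, and 7.17% and 11.6% had all 16GsoT/T libraries below all WT libraries.

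**Figure D1:**
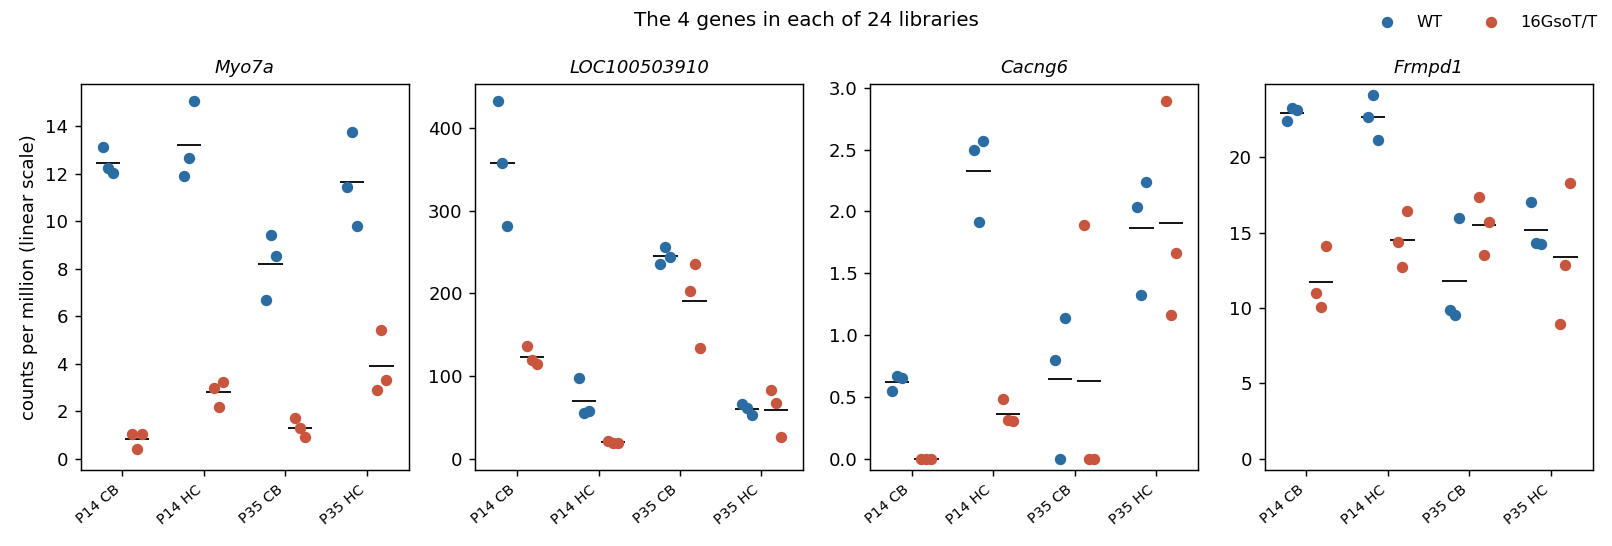
CPM (vertical axes, linear, one scale per gene) of the 4 genes in each library, by age and region, with WT in blue and 16GsoT/T in red. Points are libraries and the short black lines are means of 3. In the Myo7a panel the 16GsoT/T libraries lie below the WT libraries in each age and region, whereas the other panels show this at P14 only.

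At P35, in libraries that had no part in the selection, Myo7a was again lower. In P35 CB the WT libraries held 42, 76 and 45 Myo7a counts (6.68, 9.43 and 8.55 CPM) and the 16GsoT/T libraries 10, 9 and 6 counts (1.72, 1.28 and 0.896 CPM). The highest mutant library was thus well below the lowest WT library. The fitted log2 fold change of Myo7a was -2.67 with an SE of 0.29 (adjusted p = 2.88e-05, edgeR), and the mutant mean was 15.8% of the WT mean. Myo7a was the only member called lower in P35 CB, where 18% of all tested genes were called lower and 23.9% had no overlap in that direction. Its call did not depend on a single library: without each library in turn the log2 fold change lay between -2.89 and -2.46, and the gene was called in 6 of 6 such fits.

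In P35 HC the counts of Myo7a were small and the groups still did not overlap. The WT libraries held 45, 52 and 35 Myo7a counts (11.4, 13.8 and 9.79 CPM) and the 16GsoT/T libraries 12, 14 and 12 (2.89, 5.44 and 3.33 CPM). The mutant mean was 33.3% of the WT mean, a log2 fold change of -1.63 with an SE of 0.31 and a 95% interval from -2.29 to -0.97. The adjusted p of 0.0622 (edgeR) missed the threshold, so that 0 of the 3 members tested in P35 HC were called. The unadjusted p of Myo7a was 0.000107, the only one of the 3 under 0.05, and DESeq2 called Myo7a at an adjusted p of 0.0236, within a range from 0.00275 to 0.385 over all alternatives run. Of the genes tested in P35 HC, 0.0225% were called lower and 6.95% had all 16GsoT/T libraries below all WT libraries. The call came and went with the libraries used: Myo7a was called without 16GsoT/T library B11 (-1.90, adjusted p = 0.0348) and without WT library N10 (-1.65, adjusted p = 0.0321), and was not called in the other 4 such fits. WT libraries W481 and W483 carry library numbers apart from those of the other 4 libraries and dual in place of single indexes in their labels, which name no preparation batch. With these sets of 2 and 4 libraries as a term in the fit, which leaves N10 as the only WT library beside the mutants, the fold change of Myo7a was -1.61 on the log2 scale (adjusted p = 0.217).

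Over all ages and regions, the WT libraries ranged from 6.68 to 15.1 CPM of Myo7a and the 16GsoT/T libraries from 0.423 to 5.44 CPM, 12 libraries each. At P35 the difference was smaller in HC than in CB by 1.02 on the log2 scale (SE 0.44, 95% interval 0.10 to 1.95). The test of genotype by region did not pass for Myo7a after adjustment (adjusted p = 0.151, edgeR). In that test 9.61% of all genes were called, and 0 of the 3 members tested were called, by edgeR or by DESeq2.

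**Figure D2:**
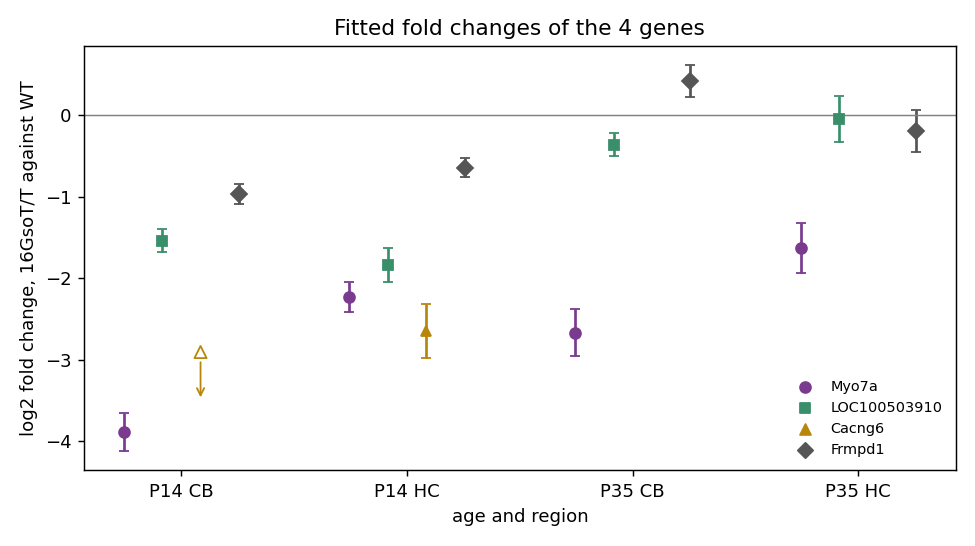
Fitted log2 fold changes of 16GsoT/T against WT (vertical axis) for the 4 genes by age and region, with bars of 1 standard error. The open triangle is the bound for Cacng6 in P14 CB, where no mutant library had a count, and Cacng6 had too few counts to be tested at P35. Myo7a stays between -1.63 and -2.67 at P35, while LOC100503910 and Frmpd1 lie between -0.36 and 0.42.

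LOC100503910 was the most abundant of the 4 by CPM, and it was not called at P35 by edgeR or DESeq2. In P14 CB the WT libraries had 433, 358 and 282 CPM of LOC100503910 and the 16GsoT/T libraries 136, 119 and 114 CPM. In P14 HC they had 97.4, 55.5 and 57.9 against 21.1, 18.5 and 19.5 CPM. Mutant means were 34.4% and 27.99% of WT means, and the mutant libraries lay closer together than the WT libraries in both regions. In P35 CB the WT libraries had 236, 256 and 244 CPM and the 16GsoT/T libraries 202, 236 and 134 CPM, so the groups overlapped in 1 library, C20. The log2 fold change of LOC100503910 there was -0.36 (SE 0.14, adjusted p = 0.0700, edgeR), with a 95% interval from -0.68 to -0.05. It became -0.54 without library C20 (adjusted p = 0.00644, the lowest of a range up to 0.282 over the alternatives run) and -0.16 without library C21 (adjusted p = 0.167). In P35 HC the 16GsoT/T libraries spread on both sides of WT, with 82.6, 66.9 and 25.8 CPM against 66.3, 61.9 and 52.6 CPM. The log2 fold change of LOC100503910 was -0.05 with a 95% interval from -0.65 to 0.55.

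Frmpd1 was lower at P14 by less than the other members. The WT libraries of P14 CB had 22.4, 23.3 and 23.1 CPM of Frmpd1 and the 16GsoT/T libraries 10.98, 10.1 and 14.1 CPM. In P14 HC, 22.7, 24.1 and 21.1 CPM stood against 14.4, 12.7 and 16.4 CPM. WT levels of Frmpd1 were therefore alike in the regions by CPM, and mutant means were 51.1% and 64.0% of them. In P35 CB the WT libraries had 9.86, 9.56 and 16.0 CPM and the 16GsoT/T libraries 17.3, 13.5 and 15.7 CPM. The fitted log2 fold change of Frmpd1 was 0.42 (SE 0.19, adjusted p = 0.112, edgeR), with WT library M29 at the mutant level. Without M29 it was 0.67 (adjusted p = 0.0132, the lowest of a range up to 0.359 over the alternatives run), and without M28 it was 0.28 (adjusted p = 0.359). The fit without M29 was the only one of 10 alternatives in which Frmpd1 was called in P35 CB. In P35 HC, 17.03, 14.3 and 14.3 CPM stood against 8.91, 12.8 and 18.3 CPM, and the log2 fold change of -0.20 had a 95% interval from -0.74 to 0.35.

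Cacng6 was near the limit of detection. At P14 the WT CB libraries held 19, 23 and 15 Cacng6 counts and the 16GsoT/T libraries 0, 0 and 0. A floor of 3 counts in each mutant library makes the mutant mean at least 7.49-fold lower than the WT mean. In P14 HC the WT libraries held 26, 21 and 28 counts (2.50, 1.91 and 2.57 CPM) and the 16GsoT/T libraries 6, 4 and 4 (0.484, 0.312 and 0.301 CPM), or 15.7% of WT by their means. At P35 the groups overlapped in both regions. In P35 CB there were 5, 0 and 6 Cacng6 counts in WT and 11, 0 and 0 in 16GsoT/T. In P35 HC there were 8, 5 and 8 in WT and 12, 3 and 6 in 16GsoT/T, with means of 1.86 and 1.91 CPM. Cacng6 did not pass the filter on low counts at P35, and in a fit without the filter its log2 fold change was 0.00 with an SE of 0.89 in CB and 0.09 with an SE of 0.55 in HC.

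Set per kilobase of exon, the WT levels at P14 in HC were 1.55 CPM per kb for Myo7a, 2.97 for Cacng6 and 4.25 for Frmpd1. In WT P14 CB the order was different, with 0.792 CPM per kb for Cacng6, 1.46 for Myo7a and 4.31 for Frmpd1. LOC100503910 has no annotated length and is left out of this order.

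The members belong to a group of 25 genes that were called lower in both regions at P14. This group makes up 37.9% of the 66 genes called lower in CB and 36.2% of the 69 called lower in HC. Of the 14588 genes tested in both, none was called higher in both by edgeR. At an unadjusted p under 0.05 (edgeR), 234 genes were lower in both and 158 higher in both. DESeq2 called 46 lower in both and 9 higher in both. The 10 genes with the lowest mean fold change in the group of 25 are Gm9199, Gm8615, Gm5801, Cacng6, Myo7a, Sox2ot, Map3k6, Kcna5, LOC100503910 and Sult1a1. Of these, Sox2ot is a long noncoding RNA that spans Sox2, Map3k6 is a MAP kinase kinase kinase, Sult1a1 is a sulfotransferase and Kcna5 a voltage-gated potassium channel. The group also holds Fkbp5, a co-chaperone of the glucocorticoid receptor, and Tsc22d3, the glucocorticoid-induced leucine zipper. Slc2a1, the glucose transporter of the blood-brain barrier, and Gjb6, the astrocyte connexin 30, belong to it too. These genes are named here after their values were seen. The motif AGAACA occurred in 4 of 23 promoter windows of 18 genes in the group (17.4%), against 18.97% of all windows.

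At P35 in CB, 20 of the 25 genes passed the filter. Of these, 7 were called lower and 3 higher, where 18% and 17.4% of all tested genes were. The 7 were Myo7a, Thrsp, Wbscr17 and the Y-linked genes Ddx3y, Eif2s3y, Kdm5d and Uty. The 3 called higher were Gm8615, Hbegf, a growth factor of the EGF family, and Tsc22d3. In P35 HC none of the 21 genes tested was called by edgeR, where 0.135% of all tested genes were. There 6 had an unadjusted p under 0.05, as did 1179 of all 13343 tested genes. DESeq2 called Myo7a and Wbscr17. A fold change below 0 was found for 20 of the 21, with a median of -0.21 on the log2 scale against -0.01 over all genes. Wbscr17, the older symbol of Galnt17, is one of the 2 genes, with Auts2, between which the study places the chromosome 5 breakpoint. Its log2 fold changes were -0.31 in P35 CB (adjusted p = 0.00835, edgeR) and -0.62 in P35 HC (adjusted p = 0.120).

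**Figure D3:**
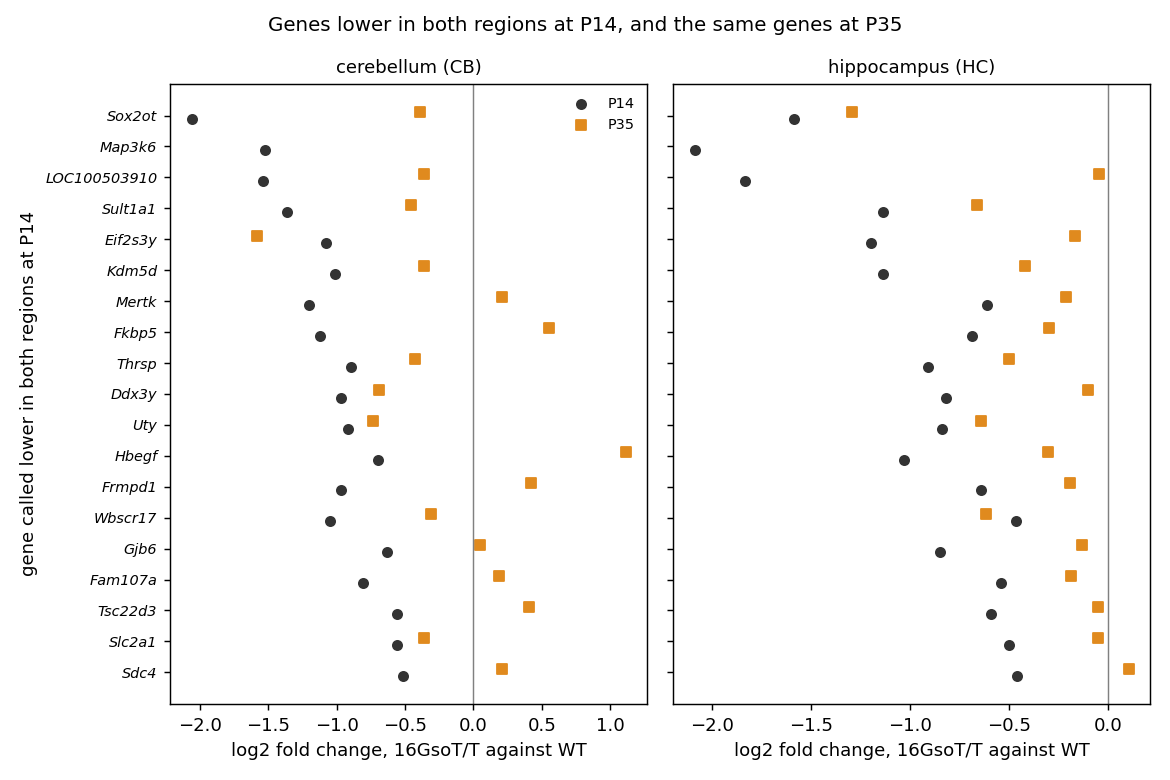
Log2 fold changes of 16GsoT/T against WT (horizontal axes) for the 19 genes called lower in both regions at P14 that had a mean of at least 1 CPM in both genotypes at P14, in CB (left) and HC (right), at P14 (dark circles) and P35 (orange squares). The limit leaves out Myo7a, Cacng6, Gm8615, Gm9199, Gm5801 and Kcna5, whose 16GsoT/T means in P14 CB were under 1 CPM. At P35 the points of CB lie on both sides of 0, while in HC nearly all remain below 0. Map3k6 has no P35 points because it was not tested there.

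The 4 Y-linked genes are expressed throughout male tissues. Eif2s3y had 193, 199 and 197 CPM in the WT libraries of P14 CB and 89.9, 90.5 and 98.8 CPM in the 16GsoT/T libraries. In P35 CB it had 65.8, 61.2 and 62.0 CPM against 22.1, 20.3 and 20.8 CPM, a log2 fold change of -1.58 (adjusted p = 1.25e-07, edgeR). The groups were far apart in both. In P35 HC, Ddx3y had 113 CPM in WT library N10 but 58.2 and 56.8 CPM in W481 and W483, against 64.3, 76.2 and 72.7 CPM in 16GsoT/T. WT libraries of P35 HC thus differed among themselves at this gene by about as much as the genotypes did elsewhere. N10 is also apart from W481 and W483 in library number and index. A difference between mice and one between these sets of libraries therefore cannot be told apart. For Myo7a, N10 had 11.4 CPM, between W483 at 9.79 and W481 at 13.8 CPM.

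Thrsp and Gab2 were the called genes nearest to Myo7a at P14. Within 1 Mb of Myo7a, 21 genes were tested in each P14 comparison. In P14 CB 2 of them (9.52%) were called lower by edgeR, where 0.413% of all genes were called lower and 0.506% in either direction. In the same comparison 7 of them had an unadjusted p under 0.05, as did 1421 of all 15993 tested genes. DESeq2 called 3. In P14 HC 1 of the 21 (4.76%) was called, where 0.814% of all genes were, and 6 had an unadjusted p under 0.05, as did 2669 of all 15227. The nearest tested genes on each side, Pak1, a kinase that acts on actin, and Capn5, a calpain protease, were not called at P14. Capn5, which starts 70.5 kb from the start coordinate of Myo7a, had log2 fold changes of -0.44 in P14 CB (adjusted p = 0.0726, edgeR) and 0.04 in P35 CB (adjusted p = 0.814), with means of 26.5 in WT and 27.3 CPM in 16GsoT/T in the latter.

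Thrsp, a thyroid hormone responsive gene of lipid synthesis, starts 638 kb from the start coordinate of Myo7a and belongs to the group lower in both regions. In P35 CB the WT libraries had 34.8, 31.8 and 31.5 CPM of Thrsp and the 16GsoT/T libraries 25.6, 24.3 and 23.3 CPM (log2 fold change -0.42, SE 0.10, adjusted p = 0.00570, edgeR). In P35 HC the values were 26.7, 23.8 and 27.97 against 21.4, 19.8 and 14.1 CPM, without overlap and without a call (adjusted p = 0.445). Thrsp was thus lower in each mutant library, by much less than Myo7a. Gab2, a docking protein of receptor signalling that lies 969 kb away, was called lower in P14 CB (-0.56) and in P35 CB (-0.48). Its log2 fold changes in HC were -0.05 at P14 and -0.10 at P35. In P35 CB, 7 of 20 genes within 1 Mb (35%) were called lower and 2 higher. Of all genes, 18% were called lower there, 17.4% higher and 35.3% in either direction. In P35 HC 0 of 17 were called by edgeR or DESeq2, with 3 at an unadjusted p under 0.05, where 0.135% of all genes were called.

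**Figure D4:**
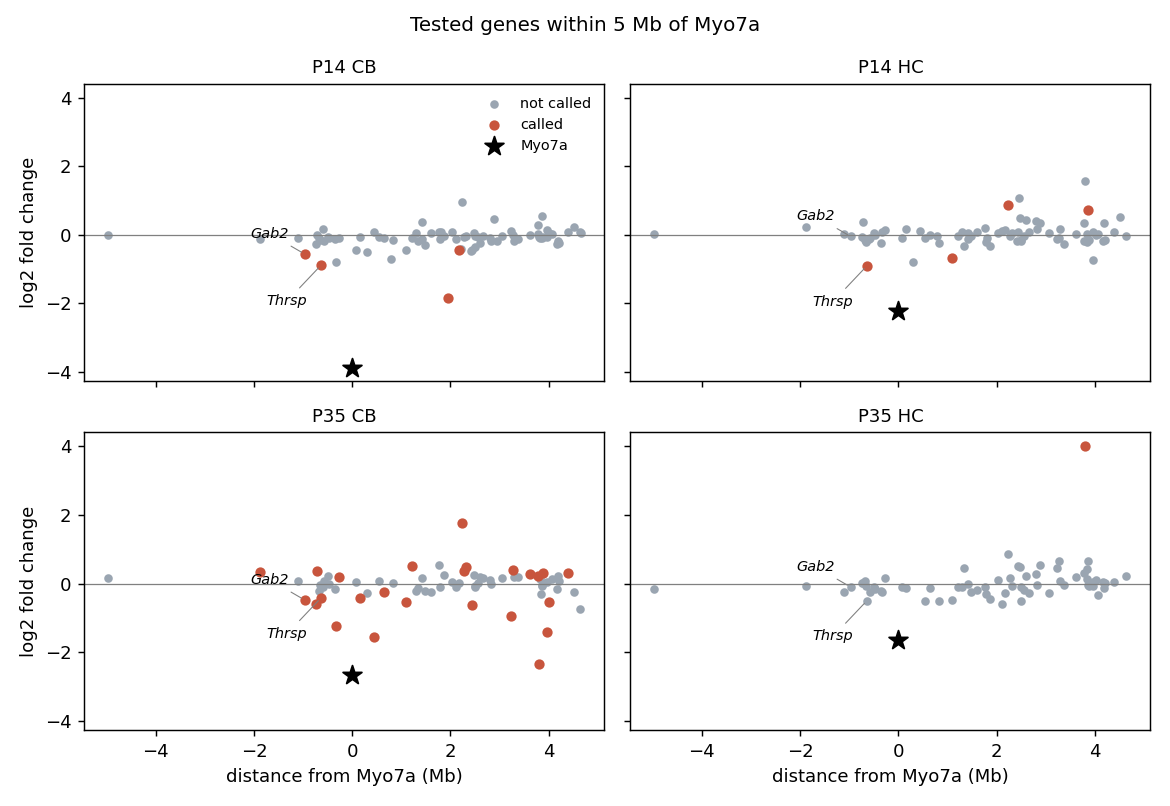
Log2 fold change of 16GsoT/T against WT (vertical axes) of every tested gene within 5 Mb of Myo7a, against its distance from Myo7a in Mb, in the 4 comparisons, with called genes in red. Myo7a (star) lies apart from its neighbours at P14, and Thrsp and Gab2 are the called genes within 1 Mb in P14 CB.

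Within 5 Mb of Myo7a the called share at P14 was also above that of all genes. Of the 80 genes tested there in P14 CB, 4 (5%) were called lower, against 0.413% of all genes, while 18 had an unadjusted p under 0.05 and DESeq2 called 10. Beside Thrsp and Gab2 these were Chrdl2, an inhibitor of BMP signalling, with -1.84, and Pgm2l1 with -0.44. In P14 HC 4 of 78 (5.13%) were called in either direction by edgeR and 4 by DESeq2, with 20 at an unadjusted p under 0.05. Thrsp and Dgat2, an enzyme of triglyceride synthesis, were lower and P4ha3 and Lrrc51 were higher. In P35 CB 25 of 71 (35.2%) were called, close to the 35.3% of all genes. In P14 CB the median log2 fold change was -0.09 over the 80 genes and -0.12 over the 21 within 1 Mb, against 0.00 over all genes.

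Around the other placed members the numbers of calls at P14 were 0 or 1, close to what shares of 0.506% and 0.814% over all genes give for so few genes. Of 23 genes within 1 Mb of Cacng6 in P14 CB, none was called by edgeR, 5 had an unadjusted p under 0.05 and DESeq2 called 1. The adjacent Cacng8, a gamma subunit that serves AMPA receptors, had means of 48.5 in WT and 51.1 CPM in 16GsoT/T in P14 HC, a log2 fold change of 0.08. The only call within 1 Mb of Cacng6 at P14 was Myadm, which was higher in P14 HC (0.54, adjusted p = 0.0274, edgeR). Around Frmpd1, 0 of 20 genes in P14 CB and 0 of 18 in P14 HC were called by edgeR or DESeq2, with 1 and 3 at an unadjusted p under 0.05. Its nearest tested neighbours Tomm5, of the mitochondrial import pore, and Rg9mtd3 had log2 fold changes between -0.13 and 0.09 at P14.

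By chromosome, the lower calls of P14 CB were most numerous on chromosome 7, with 13 of its 1115 tested genes (1.17%, against 0.413% of all genes). On chromosomes 5 and 8 they made up 5 of 900 (0.556%) and 5 of 760 (0.658%), and 4 of the 5 tested genes of chromosome Y were lower. In P14 HC, chromosome 7 had 7 lower calls among 1062 genes (0.659%, against 0.453% of all genes) and chromosome 4, which carries Frmpd1, had 8 among 869 (0.921%). The P14 counts include the members themselves, which were selected as lower at P14. These are Myo7a and Cacng6 on chromosome 7 in both regions and Frmpd1 on chromosome 4. At P35, 136 of the 977 genes tested on chromosome 7 (13.9%) were called lower in CB, where 18% of all genes were, and 0 of 929 in HC. The chromosome 7 calls of P14 CB were spread along it, from Cacng6 at 3.43 Mb to Pnpla2 at 149 Mb, and a run of them, Gab2, Thrsp, Myo7a, Chrdl2 and Pgm2l1, lay from 104.2 to 107.4 Mb.

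Genes listed as differing between C57BL/6 and other inbred strains were read beside the members. The list does not single out C3H, the other strain of the B6C3 background. Wdfy1, an endosomal adaptor protein, had 66.6, 62.2 and 58.9 CPM in the WT libraries of P14 CB, but 93.6, 30.5 and 29.2 CPM in the 16GsoT/T libraries. In P14 HC the values were 38.3, 35.2 and 33.4 against 60.4, 19.9 and 18.9 CPM. WT mice were alike at Wdfy1 and mutant mice were not. H2-D1, a class I histocompatibility gene, had 33.9, 37.5 and 3.43 CPM in the 16GsoT/T libraries of P14 CB and 3.43, 63.9 and 66.2 CPM in those of P35 CB. In WT it was never below 12.9 CPM. Mutant libraries of one group thus fell into high and low values at these genes. WT libraries spread as well at Alad, another gene of the list. It had 25.1, 53.1 and 29.8 CPM in WT and 67.6, 59.2 and 68.0 CPM in 16GsoT/T in P35 CB. The part of strain variants in the differences of the 4 genes was not tested.

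**Figure D5:**
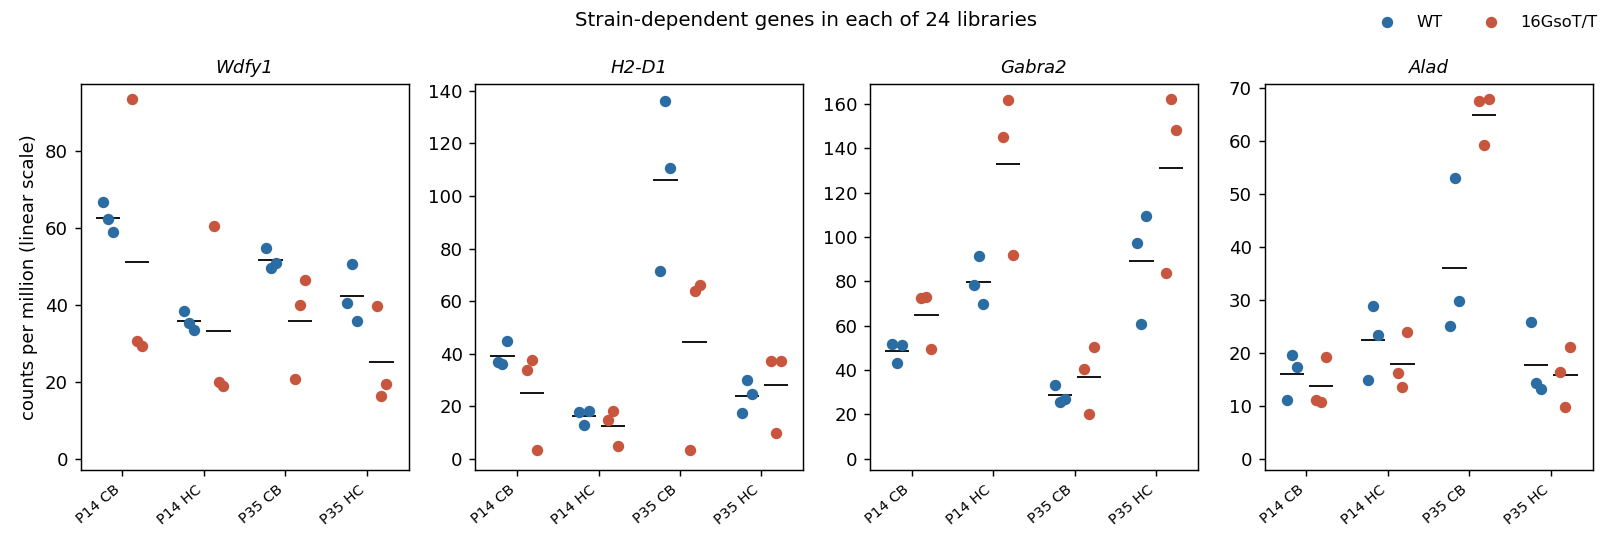
CPM (vertical axes, linear, one scale per gene) of 4 genes whose expression differs between inbred mouse strains, in each library by age and region, with WT in blue and 16GsoT/T in red and means of 3 as black lines. The 16GsoT/T libraries of one group are split at Wdfy1 and H2-D1, for example 93.6 against 30.5 and 29.2 CPM of Wdfy1 in P14 CB.

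Of the strain-dependent genes, 1 of 11 was called in P14 CB and 5 of 10 in P35 CB, where 0.506% and 35.3% of all genes were called. Entpd4, a Golgi nucleotidase, had 72.7, 75.3 and 72.6 in WT and 90.9, 90.5 and 93.1 CPM in 16GsoT/T in P14 CB, a log2 fold change of 0.32 (adjusted p = 0.0490, edgeR) and was the one called in P14 CB. In P14 HC 0 of 11 were called by edgeR and 2 by DESeq2, with 3 at an unadjusted p under 0.05. In P35 CB, Glo1 (0.54), Btbd9 (0.49), Entpd4 (0.44) and Alad (0.81) were called higher and H2-K1 (-1.31) lower. In P35 HC 0 of 9 were called by edgeR or DESeq2, with 2 at an unadjusted p under 0.05. Nnt, the mitochondrial transhydrogenase that C57BL/6J mice lack in full-length form, had 11.5 to 14.1 in WT and 12.9 to 14.4 CPM in 16GsoT/T in P14 CB. Gabra2, a GABA-A receptor subunit, had 145, 162 and 92.0 CPM in the mutant libraries of P14 HC against 78.4, 91.2 and 69.7 CPM in WT. By edgeR, Btbd9, Glo1, Dnahc8, Tlr4 and H2-K1 were not called at P14, and neither were Wdfy1, H2-D1, Gabra2, Alad and Nnt.

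The libraries of CB and HC at P14 may not be separate animals. Over 14569 genes, the deviations of 16GsoT/T CB library 4 from its group mean correlated best with those of HC library A13 (r = 0.412), those of 5 with A14 (r = 0.251) and those of 6 with A18 (r = 0.419). The other pairs of mutant libraries had r between -0.329 and -0.00891. The same order is seen at single genes: libraries 4 and A13 were the high ones for Wdfy1, and 6 and A18 the low ones for H2-D1. In WT, CB library 3 matched HC library N6 (r = 0.206), and both 1 and 2 matched N5 (r = 0.139 and 0.0733). At P35 no pair had an r above 0.0854. These correlations are across genes, which are not independent, and whether the P14 regions share mice was not tested. A gene that is lower in both regions at P14 is therefore not shown to be lower in 2 sets of mice.

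The genes whose pattern was most like that of each member were found by the correlation of log2 CPM over the 24 libraries, each centred on its age and region, among 12657 genes tested in all comparisons. The libraries differ by genotype in each age and region, so r includes the difference between genotypes. For Myo7a they were Tmc7 (r = 0.930), Wbscr17 (0.898), Uty (0.896), Eif2s3y (0.886) and Glt1d1 (0.884). Tmc7, of the transmembrane channel-like family, also lies on chromosome 7, 20.5 Mb from Myo7a, and its log2 fold changes were -1.11, -0.75, -1.05 and -0.91 in P14 CB, P14 HC, P35 CB and P35 HC. For LOC100503910 they were Thrsp (0.900), Sox2ot (0.825), Kcnn2 (0.822), 5730469M10Rik (0.822) and Exosc9 (0.819). For Cacng6 the values were lower, with 5730469M10Rik (0.768), Azi1 (0.705), Thrsp (0.671), Fmnl1 (0.670) and Sparcl1 (0.667). For Frmpd1 they were Fam107a (0.808), Mycl1 (0.792), Mertk (0.755), a receptor kinase of phagocytosis, D15Wsu169e (0.740) and Sap130 (0.739). Among the members themselves r ran from 0.446, for LOC100503910 with Frmpd1, to 0.760, for Myo7a with LOC100503910, and since all 4 were chosen as lower in the P14 libraries, the choice itself favoured positive values.

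Listed relatives and partners of the members were called at about the share of all genes at P14 (0.506% in CB and 0.814% in HC). Of 82 such genes tested in P14 CB, from lists of hair bundle and Usher genes, MYO7A partners, other unconventional myosins, calcium channel subunits and the FRMPD family, 0 were called by edgeR and 1 by DESeq2, with 13 at an unadjusted p under 0.05. In P14 HC it was 0 of 79, 2 by DESeq2 and 15 at an unadjusted p under 0.05. In P35 HC it was 0 of 70 by both tools, with 8 at an unadjusted p under 0.05. In P35 CB 17 of 73 were lower and 14 higher, and the median fold change was 0.03 on the log2 scale against 0.00 over all genes. Of all tested genes 35.3% were called there, against 31 of these 73.

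Among hair bundle and Usher genes in P35 CB, 3 of 12 were lower and 3 higher. Of all tested genes, 18% were called lower and 17.4% higher there, and the same shares apply to the lists that follow. Myo15, the myosin of stereocilia tips, was lower (-1.59, adjusted p = 0.0061, edgeR), as were Pcdh15, a tip link cadherin, (-0.95) and Whrn, a scaffold of the Usher complex, (-0.62), and Triobp, an actin bundler, was higher (0.74). Of other unconventional myosins 5 of 14 were lower and 3 higher, with Myo5c (-1.09), Myo19 (-0.76) and Myo9b (-0.52) lower and Myo18a (0.46) higher. On the list of MYO7A cargo and partners, 4 of 11 tested were called. Mlph, which is on that list but links myosin Va to melanosomes, was higher (0.92), as was Calm3 (0.30). Vezt (-0.35) and Phldb1 (-0.30) were lower. Of the 6 gamma subunits tested, Cacng3 was higher (0.79). Of 17 alpha, beta and alpha2delta subunits 5 were lower, led by Cacna1e (-0.57), and 2 higher, led by Cacna1g (0.35). Of 13 genes of the FRMPD family and of G protein regulators, Frmpd3 (-0.75) and Frmpd4 (-0.45) were lower and Gnao1 (0.39), Gpsm1 (0.34) and Numa1 (0.30) higher.

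Markers of other cell types were read beside the members. Of the choroid plexus markers, 8 of 10 were higher in P35 HC, where 0.112% of all genes were called higher, with a median of 3.04 on the log2 scale and a summed level of 374 to 1808 CPM in 16GsoT/T against 85.6 to 95.8 CPM in WT. Myo7a was lower in those same mutant libraries. In P35 CB 2 of the 10 were lower (median -1.62), where 18% of all genes were called lower, with sums of 141 to 389 CPM in 16GsoT/T and 22.7 to 2173 CPM in WT. The same WT libraries had 6.68 to 9.43 CPM of Myo7a. At P14 none of the 10 was called in CB or HC by edgeR or DESeq2, with 0 and 1 at an unadjusted p under 0.05, and no marker of the list was at 0. Of the ependymal markers 2 of 8 were called higher by edgeR in P14 HC, where 0.361% of all genes were. All 8 had an unadjusted p under 0.05, as did 2669 of all 15227 tested genes, and DESeq2 called 5. Their median log2 fold change was 1.24, with sums of 48.3 to 54.8 CPM in 16GsoT/T and 17.8 to 31.6 CPM in WT. Purkinje cell markers summed to 7344 to 8067 CPM in WT and 6468 to 6871 CPM in 16GsoT/T in P14 CB. Of 9 tested there, 0 were called by edgeR and 1 by DESeq2. An unadjusted p under 0.05 was found for 4 of the 9, and for 1421 of all 15993 genes. Sums in P35 CB were 9643 to 10092 CPM in WT and 10036 to 11165 CPM in 16GsoT/T. The part of choroid plexus, ependymal and Purkinje cells in the differences of the 4 genes was not tested. Melanocyte markers summed to 19.03 to 22.7 in WT and 15.4 to 19.99 CPM in 16GsoT/T in P14 CB, and 0 of 3 tested were called by edgeR or DESeq2, with 1 at an unadjusted p under 0.05. Cerebellum markers summed to at least 5532 CPM in the P14 CB libraries and to at most 102 CPM in those of P14 HC, as the labels say. In P35 HC they summed to 61.0 to 114 CPM in WT and 57.2 to 231 CPM in 16GsoT/T, and in P35 CB to at least 6174 CPM. The share of reads on genes was 42.3 to 42.4% in the 16GsoT/T libraries of P35 CB and 37.6 to 37.7% in WT, without overlap, and its part in the P35 CB differences was not tested. In P14 HC the WT libraries were run in one lane and the 16GsoT/T libraries in another, so a lane effect and a genotype effect cannot be told apart in that comparison.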

How the data were processed

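Stranded mRNA libraries of CB and HC were sequenced by the authors. The submitters' processing notes name CASAVA 1.8.2, TopHat2 2.0.8, HTSeq 0.6.1, edgeR 3.2.4, R 3.0.0 and build NCBIM37. The deposited files hold raw counts per gene symbol, one table for each age, without normalization, and 25 symbols had been turned into dates. The strand option of the counting is not given in the sources used here. Summary lines of the counter were left out of library sizes.

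The members and the gene lists were chosen with earlier results of these data known. Groups came from the sample labels. In R 4.3.3, counts of the 6 libraries of an age and region were filtered with filterByExpr (minimum count 10, minimum total 15), scaled by TMM and fitted with the quasi-likelihood test of edgeR 4.0.16. The Benjamini-Hochberg adjustment ran over every tested gene, and genes with an adjusted p of at most 0.05 were called. Genotype by region at P35 was fitted over 12 libraries. Intervals of fold changes use the t distribution of the same fits. Floors of 3 counts per library cover counting error only. The tests were tried on simulated data. Alternatives were DESeq2 1.42.0, its size factors, no filter, one fit per age, library batch in P35 HC, as read from library numbers and indexes, and each library left out. With batch as a term, P35 HC rests on a single WT library. Named genes were the members, the 10 lowest of the genes called lower in both P14 comparisons, the nearest and the called genes within 1 Mb of each member (at most 6), at most 4 called genes per list, the 5 most similar to each member and the tested strain-dependent genes. Promoters came from RefSeq (GRCm38.p6), with 3 of the 4 members matched.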

Additional observations from a re-analysis of the deposited data

Results flagged for a closer look

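Of the genes called lower in both regions at P14 and tested in P35 CB, 3 were called higher there, namely Gm8615, Hbegf and Tsc22d3. For 2 of them, Gm8615 and Hbegf, every 16GsoT/T library in CB was below every WT library at P14 and above at P35. The groups of Tsc22d3 overlapped in P35 CB (log2 fold change 0.41). Kcna5 had the same order of libraries but did not pass the filter in P35 CB. It held 3, 0 and 2 counts there in WT and 3, 4 and 8 in 16GsoT/T. Gm8615, a predicted gene, had 5.80, 5.16 and 5.23 CPM in WT and 0.315, 0.272 and 0.312 CPM in 16GsoT/T in P14 CB, but 0.318, 0.00 and 0.190 CPM in WT and 6.01, 5.11 and 6.57 CPM in 16GsoT/T in P35 CB, where the fitted log2 fold change was 5.10. In the 16GsoT/T libraries of P35 HC it had 8.67, 0.00 and 7.49 CPM, so that mutant mice of one group differed among themselves. Hbegf had 63.7, 64.8 and 67.9 CPM in WT and 38.1, 46.1 and 37.3 CPM in 16GsoT/T in P14 CB, and 33.7, 34.1 and 27.7 against 61.0, 77.4 and 69.6 CPM in P35 CB, a log2 fold change of 1.11. The difference between the ages was not tested for any of these genes, because P14 values chose the group. Groups of 3 libraries are too small for a test of single outlying libraries.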

How the results depend on the processing

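Myo7a was called in P14 CB, P14 HC and P35 CB under every alternative run. In P35 HC it was called by DESeq2 (-1.62, adjusted p = 0.0236), without the filter (-1.64, adjusted p = 0.00275) and in one fit of 12 libraries (-1.64, adjusted p = 0.0246), and not with DESeq2 size factors or the batch term. The cause was not tested. Without single libraries its fold change there ran from -1.90 to -1.44. LOC100503910 in P35 CB was called without the filter (-0.35, adjusted p = 0.0119) and ran from -0.54 to -0.16 without single libraries. Frmpd1 ran from 0.28 to 0.67 in P35 CB, where it was called in 1 of 6 such fits. Signs turned for Frmpd1 in P35 HC (-0.51 to 0.065) and for LOC100503910 in P35 HC (-0.41 to 0.32) and in the test of genotype by region (-0.078 to 0.67), all uncalled. Cacng6 and Frmpd1 lost their P14 CB call without WT library 2. In P14 HC single omissions ended the call of Frmpd1 in 5 of 6 fits, of Cacng6 in 3 and of LOC100503910 in 2, and DESeq2 gave no adjusted p for Cacng6. Numbers of called genes with DESeq2 were 241, 399 and 44 in P14 CB, P14 HC and P35 HC, against 81, 124 and 18. One fit per age gave 326 in P14 HC and 37 in P35 HC, and no filter gave 134 in P35 HC. Without single libraries they ran from 33 to 181, 13 to 114 and 6 to 139. DESeq2 called 46 genes lower in both regions at P14, 22 of them among the 25. At P35 Cacng6 had too few counts to pass the filter. No paired analysis was possible because no groups share replicate numbers in the labels, and the fit of 12 libraries treats them as separate mice.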
